A study of Mus musculus with 235 samples.

Results

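The 10 genes described here belong to vascular endothelial growth factor (VEGF) signalling and to the wall of blood vessels. They are Flt1, Kdr, Vegfa, Tek, Eng, Pecam1, Egfl7, Esam, Itm2a and Pltp. They were taken by symbol, and all 10 were found among the 27998 genes of the count table. Messenger RNA had been counted by 3' end sequencing in punches of 8 regions from the brains of C57Bl/6 mice, which were males aged 3 months. Of the animals, 15 were injected intraperitoneally with 10 mg per kg of dexamethasone, which is a synthetic glucocorticoid, and 15 with saline, the vehicle. Tissue was collected 4 h after the injection, and brains were perfused beforehand. Each of the 235 libraries held 1 region of 1 animal, with 13 to 15 libraries per region and arm. The labels name the regions PFC, AMY, PVN, CER, dCA1, vCA1, dDG and vDG without expanding the codes.

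VEGF-A, the product of Vegfa, is secreted and acts on endothelial cells, the cells that line blood vessels. Its main signalling receptor there is VEGFR2, coded by Kdr. VEGFR1, coded by Flt1, binds VEGF-A tightly but signals weakly, and is also made as a soluble form that traps the ligand. Tek codes for TIE2, the receptor of the angiopoietins, which maintain vessel stability, and Eng codes for endoglin, a co-receptor for bone morphogenetic proteins (BMPs) and transforming growth factor beta (TGF-beta). Pecam1 and Esam are adhesion molecules of the junctions between endothelial cells. Egfl7 is a matrix protein secreted by endothelium, Itm2a is a membrane protein enriched in brain endothelium, and Pltp codes for phospholipid transfer protein. In the brain these cells form the blood-brain barrier. A punch holds neurons, glia and vessels together, so fewer vessel cells and less RNA per vessel cell cannot be told apart in any value below.

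The count table's coordinates are those of mouse build GRCm38, and each range runs from the first to the last exon base. Flt1 lies on chromosome 5 from 147561604 to 147726011 and Kdr on chromosome 5 from 75932827 to 75978458, both on the minus strand. Vegfa lies on chromosome 17 from 46016993 to 46032377 on the minus strand, and Tek on chromosome 4 from 94739289 to 94874976 on the plus strand. Eng (32646595 to 32682669) and Egfl7 (26580014 to 26593120) are on the plus strand of chromosome 2, and Pltp (164839518 to 164857711) on its minus strand. Pecam1 is on chromosome 11 (106654217 to 106750628, minus), Esam on chromosome 9 (37528078 to 37538319, plus) and Itm2a on chromosome X (107397099 to 107403376, minus). Exons of Pltp share 495 bases, 19.3% of its exon bases, with Ctsa on the opposite strand. Whether counting used strand is not given in the sources used here, so reads of the 2 genes may not be separable and Pltp values are uncertain. Counts at the 3' end per gene also do not separate the full-length from the soluble forms of Flt1.

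The RefSeq promoter table (GRCm38.p6) held 11 start sites for 8 of the 10 genes. The 250 bases upstream of the start are shown for the 4 receptors that fell and for the first start site of the ligand Vegfa, which did not pass the test, so that the sequences at their starts can be compared. They read 5' to 3' on the gene's strand, and capitals mark matches, on either strand, to the motifs listed after them.
Flt1, chr5:147726012-147726261, minus strand: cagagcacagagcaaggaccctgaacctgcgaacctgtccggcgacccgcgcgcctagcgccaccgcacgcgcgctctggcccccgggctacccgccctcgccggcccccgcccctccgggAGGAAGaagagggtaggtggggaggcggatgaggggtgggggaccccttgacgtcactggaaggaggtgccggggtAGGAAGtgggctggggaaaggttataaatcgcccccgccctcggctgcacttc
Kdr, chr5:75978456-75978705, minus strand: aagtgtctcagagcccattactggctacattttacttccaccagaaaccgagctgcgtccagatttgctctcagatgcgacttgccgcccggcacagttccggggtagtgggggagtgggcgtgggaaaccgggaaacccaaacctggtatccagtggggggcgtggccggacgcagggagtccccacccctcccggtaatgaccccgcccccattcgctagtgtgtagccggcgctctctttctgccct
Tek, chr4:94739039-94739288, plus strand: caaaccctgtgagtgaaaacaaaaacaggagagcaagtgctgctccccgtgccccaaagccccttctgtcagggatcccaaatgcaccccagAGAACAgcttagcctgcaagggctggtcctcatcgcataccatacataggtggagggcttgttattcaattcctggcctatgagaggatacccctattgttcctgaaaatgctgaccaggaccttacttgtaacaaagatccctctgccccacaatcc
Eng, chr2:32646345-32646594, plus strand: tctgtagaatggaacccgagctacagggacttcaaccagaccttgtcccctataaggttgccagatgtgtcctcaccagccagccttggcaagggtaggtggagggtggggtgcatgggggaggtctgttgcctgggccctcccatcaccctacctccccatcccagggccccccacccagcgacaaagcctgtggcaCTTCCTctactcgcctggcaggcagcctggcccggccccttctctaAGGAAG
Vegfa, chr17:46032378-46032627, minus strand: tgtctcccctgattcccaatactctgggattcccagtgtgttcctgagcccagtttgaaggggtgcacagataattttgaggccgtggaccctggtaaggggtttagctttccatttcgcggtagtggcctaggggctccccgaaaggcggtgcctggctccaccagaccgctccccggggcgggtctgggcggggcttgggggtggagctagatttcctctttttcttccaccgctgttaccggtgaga
The motifs searched were the glucocorticoid receptor palindrome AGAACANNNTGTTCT, the shorter site AGAACA, which is an arm of the palindrome, the ETS factor site AGGAAG and the hypoxia response element core ACGTG. Of 32851 promoters of the table, 0.00913% held the palindrome, 16.1% the shorter site, 29.5% the ETS site and 16.6% the hypoxia core in the same 250 bases. Flt1 and Eng held 2 ETS sites each, and Tek held 1 of the shorter sites at bases -158 to -153 from the start. The window of Kdr and that of Vegfa shown here held no match to these letters. The window of the second start site of Vegfa held the hypoxia core at bases -211 to -207. That window (46025164 to 46025413) lies between the first and last exon bases of Vegfa, inside the gene. Of the windows not shown, 2 of the 3 of Egfl7 held ETS sites (3 and 1) and the latter also a shorter site, that of Itm2a held 2 overlapping ETS sites, and that of Pltp held none of the motifs. None of the 11 windows held the palindrome. A match is a description of letters, not of a bound site, and no match says only that these letters are not in the window.

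The libraries held 268538 to 1451422 counts (median 742957), so that 3 counts, the limit that a count of 0 allows, stood for 2.07 to 11.2 CPM, the count per 1000000 counts of a library after scaling. RNA integrity number (RIN) was under 5 in 24 libraries. Fkbp5, Tsc22d3, Sgk1 and Zbtb16, known to be induced by glucocorticoids, rose in all 8 regions, and Nr3c1, which codes for the glucocorticoid receptor, fell in all 8. Fkbp5 went from 22.0 ± 4.40 CPM in vehicle animals to 108 ± 5.88 CPM in treated animals (SD, n = 15 each, counts summed per animal). Gabra6, a marker of cerebellar granule cells, gave 11 counts in the 30 CER libraries together, so that the label CER is not read here as cerebellum. It gave 10 or more counts in 5 vDG libraries, 1 vCA1 library and 1 PFC library. Without those 7 libraries, the calls of the 10 genes below were the same.

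The comparison of dexamethasone with vehicle asks how these vessel genes responded to the glucocorticoid within 4 h. Flt1 and Kdr fell in all 8 regions, and Kdr fell further. With the mean log2 level of 10 endothelial genes as a covariate, neither passed in dDG (Flt1 -0.46, adjusted p = 0.115, and Kdr -0.81, adjusted p = 0.0616). Both passed in the other 7 regions. Of these 10 genes, 5 were themselves lower and 2 higher in the per-animal test, so this covariate can remove part of the response. Vegfa and Esam did not pass the test in any region, nor over whole animals. Egfl7 fell in CER, PFC and vDG, Itm2a in PFC, dDG and vCA1, and Pltp in dCA1 and vCA1. Pecam1 passed in no region. Tek and Eng fell below the filter on low counts in single regions, and both fell when the counts of an animal's regions were summed. Each region was tested with edgeR's quasi-likelihood test at an adjusted p of 0.05. As background, genes lower with dexamethasone made up 2.28% of all genes tested in PFC and in CER, 2.08% in AMY, 2.06% in PVN, 2.11% in dCA1, 2.04% in vCA1, 1.37% in dDG and 1.29% in vDG. In dDG 316 genes passed in either direction, and 543 with same-numbered animals of the arms as pairs. In the summed counts this share was 9.78% of 13395 genes, and 9.38% were higher. The median log2 fold change of all genes tested lay between -0.02 and 0.00 in every comparison.

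**Figure D1:**
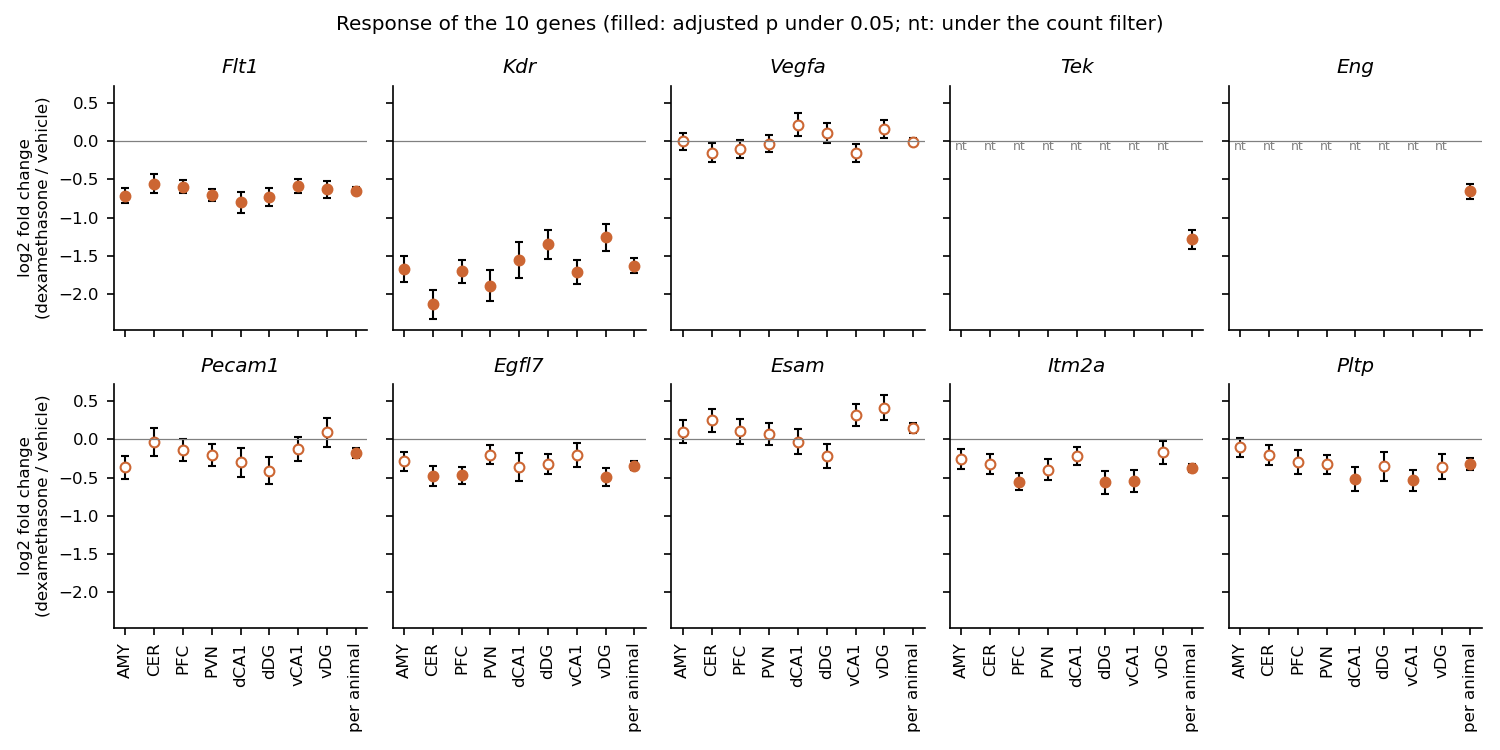
Log2 fold change of dexamethasone over vehicle (vertical axis) with its standard error for the 10 genes in each of the 8 regions and for counts summed per animal. Filled points passed the adjusted p of 0.05. Kdr lay between -2.13 and -1.26 in the regions, Flt1 between -0.80 and -0.55, and Vegfa on both sides of 0.

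Kdr, the main signalling receptor, showed the larger fall of the pair. In AMY its lowest, median and highest vehicle libraries had 23.4, 30.4 and 47.3 CPM, and the dexamethasone libraries 2.34, 9.58 and 17.9 CPM. In CER the vehicle libraries had 16.2, 34.6 and 51.8 CPM and the dexamethasone libraries 2.62, 6.78 and 12.7 CPM. In PFC these values were 18.7, 29.0 and 39.1 CPM against 5.68, 8.29 and 13.4 CPM. In vCA1, the fourth such region, they were 20.0, 31.9 and 57.8 CPM against 4.74, 10.7 and 16.4 CPM. In these 4 regions the arms did not overlap, which held for 0.0813% (AMY), 0.0443% (CER), 0.0978% (PFC) and 0.0438% (vCA1) of all genes tested, counted as lower. In PVN 14 of 15 dexamethasone libraries were below the lowest vehicle library, with 14.9, 28.8 and 53.8 CPM against 2.00, 8.45 and 18.9 CPM. In dCA1 the vehicle libraries had 13.9, 25.6 and 73.9 CPM and the dexamethasone libraries 1.62, 10.6 and 18.5 CPM. In dDG they had 19.8, 28.4 and 61.7 CPM against 4.75, 11.8 and 23.0 CPM. In all 3 of these regions, every dexamethasone library stood below the vehicle median. The same was true in vDG, with 20.3, 37.1 and 54.7 CPM against 7.53, 14.2 and 28.7 CPM.

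The log2 fold change of Kdr was -2.13 ± 0.19 in CER (SE, adjusted p = 1.87e-11), the lowest of the 8 regions, and -1.26 ± 0.18 in vDG (adjusted p = 3.56e-06), the highest. Mean levels with dexamethasone were 22.0% to 41.8% of the vehicle means. Of the 7924 genes tested in all 8 regions, 31 (0.391%) were lower in each. Ordered by the region with the weakest fall, Kdr was at rank 2 of these 31 and Flt1 at rank 19.

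Flt1, the receptor that binds VEGF-A with little signalling, fell in every region. Its log2 fold changes spanned a narrower range (-0.80 to -0.55) than those of Kdr (-2.13 to -1.26), which was not tested. In AMY the lowest, median and highest vehicle libraries had 135, 158 and 242 CPM, and the dexamethasone libraries 68.0, 99.0 and 137 CPM. In CER they had 84.9, 171 and 216 CPM against 71.0, 115 and 207 CPM, and in PFC 101, 139 and 167 CPM against 67.9, 90.1 and 116 CPM. The arms overlapped in each of these 3 regions, most widely in CER, where 14 of 15 dexamethasone libraries were below the vehicle median. In PVN the vehicle libraries had 121, 154 and 184 CPM and the dexamethasone libraries 71.4, 93.2 and 120 CPM. PVN was the 1 region of 8 in which the arms of Flt1 did not overlap, which held for 0.0324% of its genes, counted as lower. In dCA1 the vehicle libraries had 88.1, 137 and 299 CPM against 66.3, 77.3 and 107 CPM. In dDG the values were 87.8, 140 and 203 CPM against 57.7, 82.7 and 120 CPM. In both, all dexamethasone libraries were below the vehicle median, and 12 of 15 vehicle libraries were above the highest dexamethasone library. In vCA1 the values were 106, 144 and 204 CPM against 73.5, 90.9 and 116 CPM, and in vDG 97.4, 151 and 196 CPM against 65.6, 92.1 and 128 CPM. The log2 fold change of Flt1 was -0.80 ± 0.14 in dCA1 (SE, adjusted p = 0.00014), the lowest, and -0.55 ± 0.12 in CER (adjusted p = 0.00126), the highest. Mean levels with dexamethasone were 56.4% to 69.7% of vehicle.

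**Figure D2:**
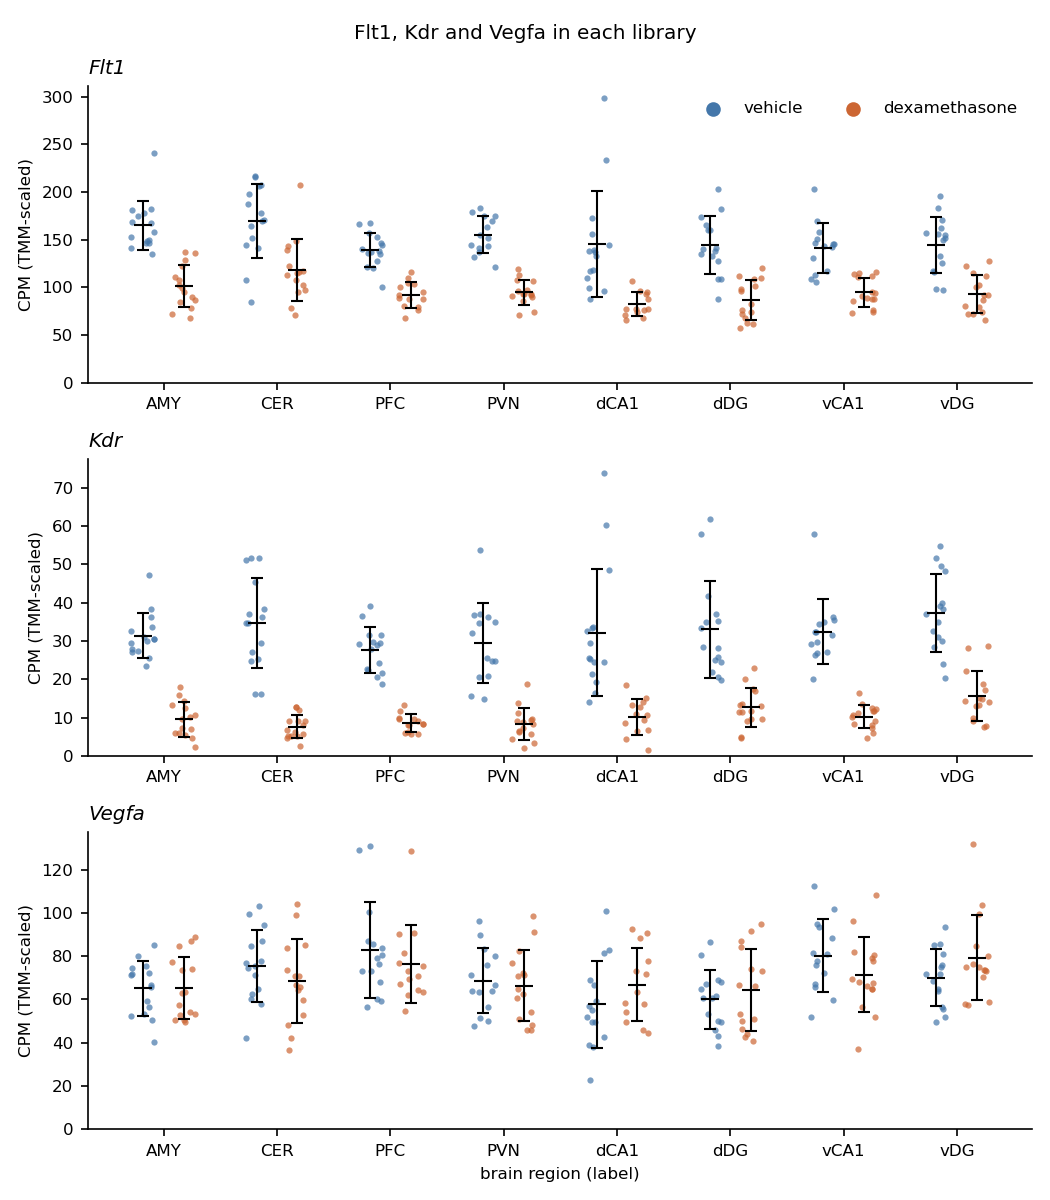
CPM of Flt1, Kdr and Vegfa in each library (points) by region (horizontal axis) and arm, with the mean and SD in black; the vertical axes start at 0. The dexamethasone libraries of Kdr had means of 7.63 to 15.6 CPM, below the vehicle means of 27.6 to 37.3 CPM in every region, while those of Vegfa overlapped the vehicle libraries throughout.

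Summed over an animal's regions, Kdr had 32.3 ± 6.89 CPM in vehicle animals and 10.5 ± 1.65 CPM in treated animals (SD, n = 15 each). The lowest vehicle animal, at 23.8 CPM, was above the highest treated animal, at 13.4 CPM, and the log2 fold change was -1.63 ± 0.10 (SE, adjusted p = 1.99e-16). Flt1 had 149 ± 10.9 CPM against 95.7 ± 8.78 CPM, with a log2 fold change of -0.65 ± 0.04 (adjusted p = 9.85e-15). The lowest vehicle animal was at 126 CPM and the highest treated animal at 115 CPM, so neither receptor overlapped between arms. This was so for 0.672% of all genes, counted as lower.

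Tek, the angiopoietin receptor, had mean levels of 6.42 to 8.77 CPM in the vehicle groups and 1.99 to 4.22 CPM in the dexamethasone groups. These levels lay near the limit set by 3 counts, and 218 of 235 libraries had a count of it. Per animal, the lowest, median and highest vehicle values were 4.65, 7.20 and 11.2 CPM, and those of treated animals 1.82, 3.01 and 4.83 CPM. The arms overlapped at 1 animal on each side, and the log2 fold change was -1.28 ± 0.13 (SE, adjusted p = 1.66e-10). With no filter on low counts, Tek was lower in 5 of 8 regions, where log2 fold changes ran from -1.79 to -0.75 over all 8. Eng, the BMP and TGF-beta co-receptor, had mean levels of 7.18 to 9.93 CPM in the vehicle groups and 4.41 to 5.75 CPM in the dexamethasone groups. Per animal its vehicle values were 5.08, 8.00 and 9.77 CPM, and treated values 3.39, 5.07 and 6.53 CPM. All 15 treated animals were below the vehicle median, and the log2 fold change was -0.66 ± 0.10 (adjusted p = 2.51e-06). With no filter Eng passed in none of the 8 regions, where the highest adjusted p was 0.537.

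Vegfa, the ligand, passed the test in no region, and its arms overlapped in all 8. Its largest difference was in dCA1, where the lowest, median and highest vehicle libraries had 22.9, 55.0 and 101 CPM and the dexamethasone libraries 44.6, 63.5 and 92.4 CPM. The log2 fold change there was 0.21 ± 0.15 (SE, adjusted p = 0.641). Over the 8 regions it ran from -0.15 to 0.21, with adjusted p from 0.628 to 0.997 and an unadjusted p under 0.05 in 0 regions. Neither DESeq2 nor limma on the deposited log2 values called it in any region. Per animal, vehicle animals had 70.4 ± 8.38 CPM and treated animals 70.4 ± 5.34 CPM (SD, n = 15 each), a log2 fold change of -0.01 ± 0.05 (adjusted p = 0.967). The sign of a difference this small changed with the processing.

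**Figure D3:**
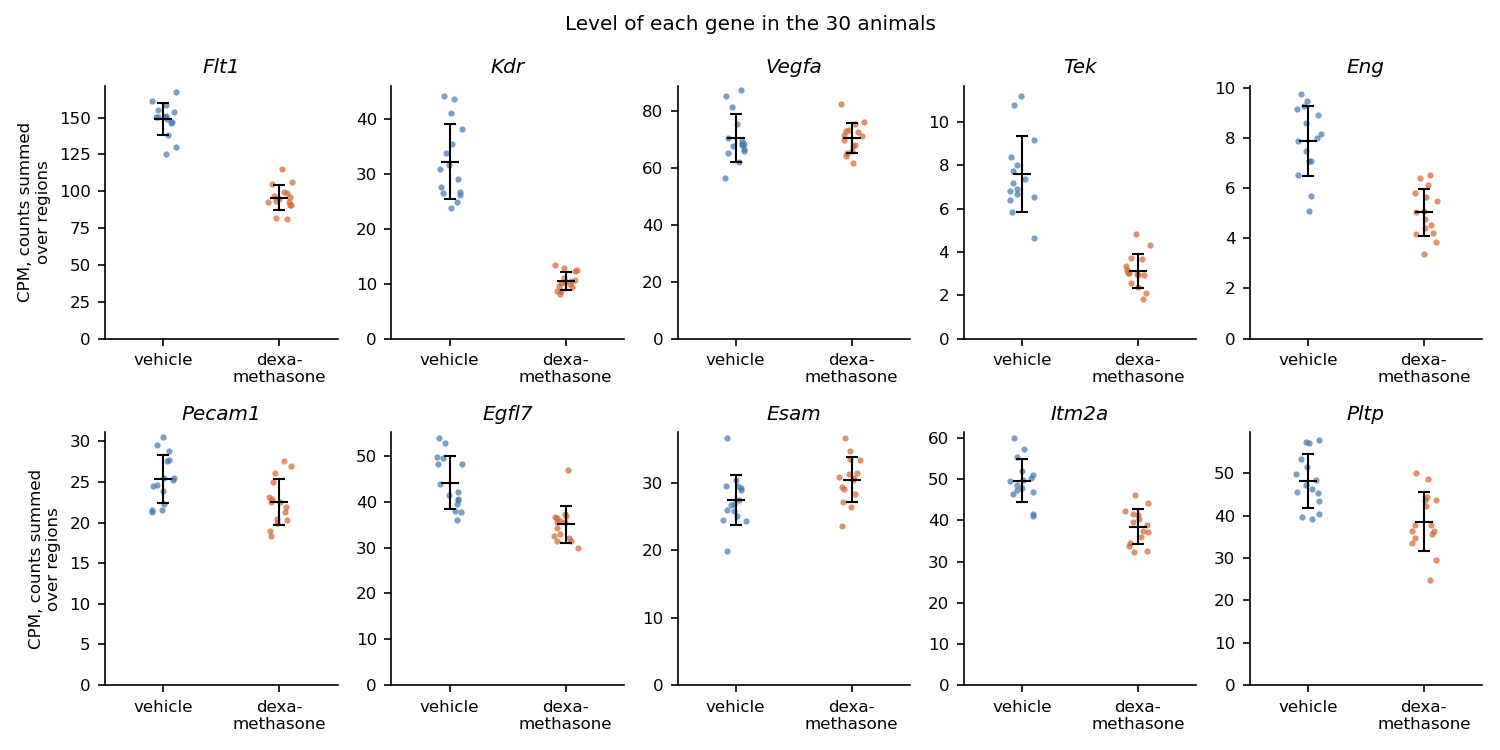
CPM of each of the 10 genes in the 30 animals after summing counts over regions, with the mean and SD in black; each vertical axis starts at 0. The arms of Flt1 and Kdr did not overlap, and those of Vegfa, both at a mean of 70.4 CPM, did.

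The junction genes Pecam1 and Esam gave no call in any region. For Pecam1, 0 of 8 regions passed by edgeR, 0 by DESeq2, and 2 had an unadjusted p under 0.05. Its log2 fold changes ran from -0.41 in dDG to 0.09 in vDG. In dDG the lowest, median and highest vehicle libraries had 13.1, 26.9 and 41.3 CPM and the dexamethasone libraries 8.52, 19.2 and 36.4 CPM, so the arms overlapped over most of their range. Per animal, Pecam1 fell from 25.3 ± 2.97 to 22.5 ± 2.82 CPM (SD, n = 15 each), -0.18 ± 0.06 as log2 fold change (± SE; adjusted p = 0.0425). This call did not hold with no filter on low counts, where the log2 fold change was -0.17 (adjusted p = 0.0727). It was also lost with the endothelial level as a covariate (-0.01, adjusted p = 0.987), most of whose genes changed with dexamethasone. For Esam the same counts held. Its mean was higher with dexamethasone in all regions but dCA1 and dDG, and its log2 fold change was highest in vDG, at 0.41 ± 0.16 (adjusted p = 0.224). There the vehicle libraries had 8.75, 29.6 and 43.0 CPM and the dexamethasone libraries 23.4, 35.7 and 48.0 CPM. Per animal, Esam had 27.4 ± 3.72 CPM against 30.5 ± 3.35 CPM, a log2 fold change of 0.15 ± 0.06 (adjusted p = 0.112).

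Egfl7, Itm2a and Pltp had lower means with dexamethasone in all 8 regions, and passed the test in some of them. Egfl7, the secreted matrix protein, went in PFC from 31.1, 53.1 and 81.5 CPM (lowest, median and highest vehicle library) to 31.2, 36.2 and 48.3 CPM with dexamethasone. Its log2 fold changes were -0.47 ± 0.11 in PFC (SE, adjusted p = 0.00462), -0.48 ± 0.13 in CER (adjusted p = 0.012) and -0.49 ± 0.12 in vDG (adjusted p = 0.00686). In PFC, 10 vehicle libraries stood above all dexamethasone libraries. Itm2a, the endothelial membrane protein, went in PFC from 26.8, 52.5 and 65.9 CPM to 20.6, 36.2 and 44.9 CPM, with 11 vehicle libraries above the highest dexamethasone library. Its log2 fold changes were -0.56 ± 0.11 in PFC (adjusted p = 0.000549), -0.56 ± 0.15 in dDG (adjusted p = 0.0203) and -0.55 ± 0.14 in vCA1 (adjusted p = 0.00905). Pltp, whose reads may include Ctsa, went in vCA1 from 27.0, 38.7 and 69.1 CPM to 12.9, 27.5 and 38.1 CPM. Its log2 fold changes were -0.54 ± 0.14 in vCA1 (adjusted p = 0.0117) and -0.52 ± 0.16 in dCA1 (adjusted p = 0.0465). The call in dCA1 did not hold without the libraries of RIN under 5 (-0.38, adjusted p = 0.136). That of Itm2a in dDG did not either, at a log2 fold change of -0.53 (adjusted p = 0.102). Per animal, the log2 fold changes were -0.35 ± 0.06 for Egfl7 (adjusted p = 3.05e-05), -0.37 ± 0.05 for Itm2a (adjusted p = 6.67e-07) and -0.32 ± 0.08 for Pltp (adjusted p = 0.00146). With the mean level of 10 endothelial genes as a covariate, the calls per animal of Egfl7 (-0.25, adjusted p = 0.0558) and Pltp (-0.12, adjusted p = 0.594) were lost. So were those of Itm2a in dDG (-0.21, adjusted p = 0.808) and Pltp in dCA1 (-0.27, adjusted p = 0.431). Most genes of that covariate changed with dexamethasone themselves, so these losses do not separate vessel content from response.

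Whether Flt1 moved differently from another of the genes was tested within the same RNA. For each animal the log2(CPM + 1) of the other gene was subtracted from that of Flt1, and the arms were compared by a two-sided permutation test with 100000 resamples. The 9 comparisons were adjusted together. Against Kdr the difference rose from 2.19 ± 0.26 to 3.08 ± 0.21 (SD, n = 15 each), a shift of 0.88 (p = 2e-05, the smallest the permutations can give; adjusted p = 4.5e-05). All 15 treated animals were above all vehicle animals, so Kdr fell more than Flt1. Against Tek the shift was 0.42 (adjusted p = 0.00146), with 13 of 15 treated animals above the vehicle median, so Tek fell more than Flt1 as well. Against Eng the shift was -0.08 (adjusted p = 0.328), with 10 of 15 treated animals below the vehicle median, which is not past the threshold and does not show that the 2 genes fell alike. The pseudocount of 1 understates the fall of Tek and Eng, whose levels are low.

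Against the other 6 genes Flt1 fell more. The shift was -0.64 against Vegfa, -0.47 against Pecam1 and -0.79 against Esam (adjusted p = 4.5e-05 for each, from the smallest p the permutations can give). All 15 treated animals were below the vehicle median in these 3 comparisons, and below every vehicle animal against Pecam1 and Esam. The shift was -0.31 against Egfl7 (adjusted p = 0.00054), -0.27 against Itm2a (adjusted p = 0.000977) and -0.31 against Pltp (adjusted p = 0.00078), with 14 or 15 of 15 treated animals below the vehicle median. Within single regions, not tested, the shift against Kdr was above 0 in 8 of 8 (0.60 to 1.53), and that against Vegfa, Pecam1, Egfl7, Esam and Pltp below 0 in all 8. It was above 0 in 7 of 8 regions against Tek (-0.07 in vDG), in 1 of 8 against Itm2a (0.04 in vCA1) and in 3 of 8 against Eng. In the tests per animal Flt1 fell less than Kdr and Tek, and more than Vegfa and the junction, matrix, membrane and lipid transfer genes.

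**Figure D4:**
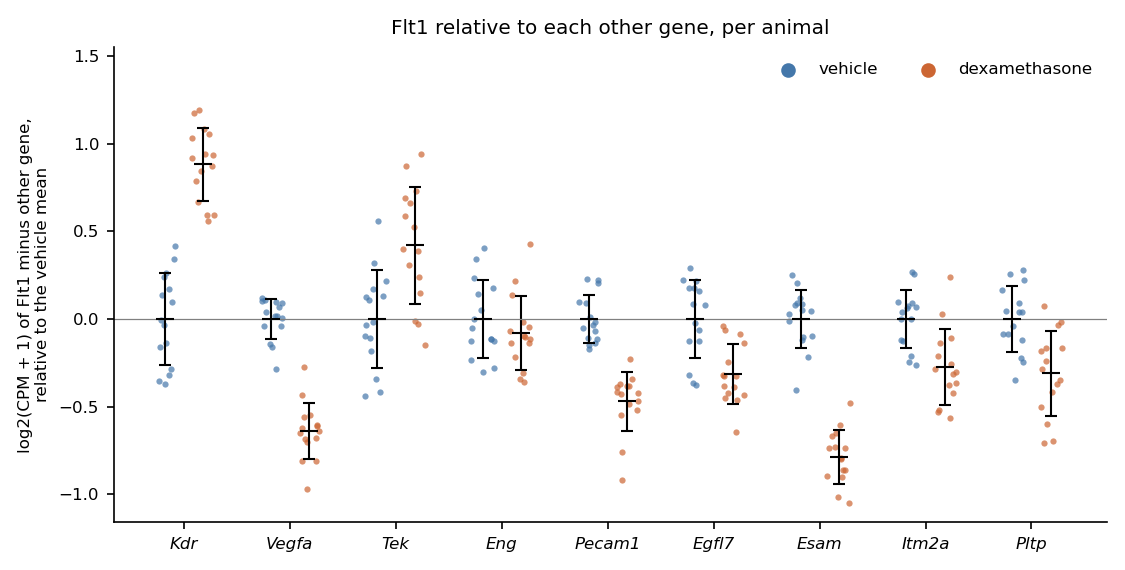
Log2(CPM + 1) of Flt1 minus that of each other gene in the 30 animals, relative to the vehicle mean (vertical axis), with the mean and SD in black. Treated animals moved up by 0.88 against Kdr and 0.42 against Tek, and down against Vegfa (-0.64) and Esam (-0.79).

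A difference of the response among the 8 regions was tested in 1 fit with the animal as a block. None of the 8 genes with enough counts passed, against 1.27% of all 11053 genes. Kdr had the lowest p (unadjusted 0.00772, adjusted 0.262), and Flt1 an unadjusted p of 0.873; the filter on low counts removed Tek and Eng. Kdr was also the 1 gene of the 8 with an unadjusted p under 0.05. The calls of Egfl7, Itm2a and Pltp in some regions therefore do not show that their response differed between regions.

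Levels among regions were compared in vehicle animals alone, scaled together and with the animal as a block, where 73.3% of all 10451 genes differed. Vegfa (adjusted p = 5.8e-05), Egfl7 (adjusted p = 0.00114) and Pltp (adjusted p = 0.000154) passed. Vegfa was highest in PFC, at 84.4 ± 22.1 CPM (SD, n = 15), then vCA1, CER, vDG, PVN, AMY and dDG, and lowest in dCA1, at 59.2 ± 20.3 CPM (n = 15). No neighbours in that order differed (adjusted p from 0.308 to 0.944). Egfl7 was also highest in PFC (54.4 ± 12.9 CPM) and lowest in dCA1 (38.3 ± 15.5 CPM), and Pltp was highest in dDG (61.4 ± 19.1 CPM) and lowest in PFC (39.4 ± 9.12 CPM). Flt1 ran from CER (169 ± 39.1 CPM) over AMY, dCA1, PVN, vCA1, dDG and PFC to vDG (142 ± 29.1 CPM; adjusted p = 0.115), and passed with upper-quartile scaling factors (adjusted p = 0.0463). Kdr ran from vDG (36.6 ± 10.2 CPM) over CER, vCA1, dDG, dCA1, AMY and PVN to PFC (28.2 ± 5.96 CPM; adjusted p = 0.0855), and no neighbours of either receptor differed. Of the 28 pairs of regions, 2 passed for Flt1, CER against PFC (adjusted p = 0.0294; 48.3% of all genes) and CER against vDG (adjusted p = 0.0311; 40.4%). For Kdr 3 passed, PFC against vDG (adjusted p = 0.0235; 28.7%), PVN against vDG (adjusted p = 0.0275; 34%) and CER against PFC (adjusted p = 0.0383). For Vegfa 10 of 28 passed, where 1.89% to 52.5% of all genes passed in single pairs. Pecam1 (adjusted p = 0.141), Esam (adjusted p = 0.233) and Itm2a (adjusted p = 0.122) did not pass either, and the filter on low counts removed Tek and Eng.

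The labels give a plate for each library and a numbered date of punching. Taking every region and plate with at least 2 libraries of each arm, Flt1 and Kdr had lower means with dexamethasone in 32 of 32 combinations, and likewise in 32 of 32 combinations of region and punching date. The date numbered 2 had 1 vehicle library in each region and was left out. The combinations split the same 30 animals, so they are not independent of each other or of the tests above. The share of all genes with such counts was not computed. Vegfa was lower in 20 of 32 by plate and 14 of 32 by date, and Esam in 13 and 12. Tek was lower in 32 and 30, Eng in 31 and 30, and Egfl7 in 28 and 30. Pecam1 was lower in 20 and 25, Itm2a in 28 and 27, and Pltp in 28 and 28.

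After the mean of each region and arm was removed, the library-to-library variation of Flt1 in log2(CPM + 1) was compared with that of 11500 genes over 235 libraries. Libraries share depth and the vessel content of the punch, and an animal gave up to 8 of them. Among the 5 genes with the highest Pearson correlation to Flt1 were Rgs5 (0.55), Adgrl4 (0.54), Ptprb (0.52) and Itih5 (0.51). Rgs5 marks pericytes and Adgrl4 and Ptprb are expressed by endothelium. Of these, Rgs5 (log2 fold change -0.02 ± 0.05, SE) and Adgrl4 (0.01 ± 0.06) did not pass the per-animal test, Ptprb fell (-0.40 ± 0.05, adjusted p = 2.51e-07) and Itih5 rose (0.35 ± 0.04, adjusted p = 2.75e-09, by edgeR). Among the other 9 genes Esam came nearest to Flt1 (correlation 0.41, rank 55), then Vegfa (0.35, rank 188) and Pecam1 (0.34, rank 198). Among the receptors, Eng stood at 0.28 (rank 423), Kdr at 0.13 (rank 1805) and Tek at 0.06 (rank 3212). Counting error at low levels lowers such correlations. A count of Tek was found in 218 of 235 libraries, and Kdr had means of 7.63 to 15.6 CPM with dexamethasone. The low values of Kdr and Tek thus do not show that they varied apart from Flt1.

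Other genes of the pathway were followed in the per-animal test, with counts of genes higher or lower beside a background of 9.38% and 9.78%. Of 7 further genes for VEGF ligands, neuropilins and VEGFR3, 6 were tested: 1 was higher, 1 was lower and 4 did not pass (median log2 fold change -0.14, against -0.01 for all genes). Pgf, which codes for placental growth factor, a ligand of VEGFR1, rose from 4.23 ± 0.88 to 10.0 ± 1.95 CPM (SD, n = 15 each), 1.24 ± 0.11 as log2 fold change (± SE; adjusted p = 8.54e-12). In single regions Pgf passed the filter on low counts only in PVN, where it rose by edgeR (1.79 ± 0.20, adjusted p = 7.1e-09). Vegfc, a lymphatic VEGF ligand, fell from 2.19 ± 0.85 to 1.29 ± 0.46 CPM (log2 fold change -0.79 ± 0.20, adjusted p = 0.00355). Of the 5 Tie and angiopoietin genes 3 were tested, and 2 fell: Tie1 by 0.61 ± 0.11 on the log2 scale (adjusted p = 5.08e-05) and Ptprb, the phosphatase that restrains TIE2, by 0.40 ± 0.05 (adjusted p = 2.51e-07). Of 18 genes acting downstream of VEGF receptors 1 rose, 2 fell and 15 did not pass (median 0.00). Nos3, the endothelial nitric oxide synthase, fell (-0.63 ± 0.11, adjusted p = 3.32e-05), Ptk2 fell (-0.16 ± 0.04, adjusted p = 0.0043) and Prkca rose (0.31 ± 0.05, adjusted p = 2.44e-06).

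Of 9 Notch genes expressed in endothelium, 5 fell, 1 rose and 3 did not pass (median -0.24). Nrarp, a Notch target, fell from 63.5 ± 7.32 to 42.7 ± 5.55 CPM (log2 fold change -0.58 ± 0.06, adjusted p = 1.43e-09), and Hey1, another, by 0.34 ± 0.05 on the log2 scale (adjusted p = 2.37e-07). The receptor Notch4 rose from 3.81 ± 0.47 to 6.74 ± 1.11 CPM (0.81 ± 0.09, adjusted p = 2.17e-09), while Notch1 fell (-0.24 ± 0.07, adjusted p = 0.00708) and the ligand Jag1 fell (-0.43 ± 0.08, adjusted p = 3.51e-05). Of 12 BMP and TGF-beta genes 10 were tested, of which 6 fell, 1 rose and 3 did not pass (median -0.16). Id3, a BMP target, fell in all 8 regions, and per animal from 149 ± 23.0 to 65.3 ± 10.6 CPM (-1.19 ± 0.08, adjusted p = 1.67e-15). Smad1, a BMP signal transducer, rose in all 8, from 36.2 ± 2.85 to 57.5 ± 3.25 CPM (0.65 ± 0.04, adjusted p = 1.27e-16). The receptor Acvrl1, which pairs with endoglin, fell (-0.37 ± 0.12, adjusted p = 0.023).

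Of 12 genes of the hypoxia response, the best known regulator of Vegfa, 5 rose, none fell and 7 did not pass (median 0.09). Ndrg1 rose from 141 ± 21.0 to 203 ± 26.1 CPM (0.52 ± 0.07, adjusted p = 1.33e-07) and Pfkfb3, a regulator of glycolysis, from 38.6 ± 2.92 to 54.1 ± 5.56 CPM (0.48 ± 0.05, adjusted p = 1.86e-10). Adm, which codes for adrenomedullin, rose (0.70 ± 0.15, adjusted p = 0.000554), as did Bnip3 (0.18 ± 0.04, adjusted p = 0.000124).

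Of 28 endothelial markers 27 were tested per animal: 16 fell, 2 rose and 9 did not pass (median -0.40). Cldn5, a tight junction protein, fell from 14.6 ± 4.45 to 5.41 ± 1.11 CPM (SD, n = 15 each), -1.43 ± 0.14 as log2 fold change (± SE; adjusted p = 1.49e-10). The ETS factor Fli1 fell by 1.21 ± 0.09 on the log2 scale (adjusted p = 1.94e-13), and the adhesion molecule Mcam by 1.23 ± 0.09 (adjusted p = 4.11e-13). Slco1a4, a transporter of the blood-brain barrier, fell from 110 ± 10.4 to 66.4 ± 7.36 CPM (-0.73 ± 0.05, adjusted p = 1.88e-14). Slc2a1, the glucose transporter of the same barrier, rose from 89.3 ± 18.1 to 201 ± 10.6 CPM (1.16 ± 0.07, adjusted p = 3.29e-16). Most endothelial markers thus fell, but not all moved in the same direction, as 16 of 27 fell and 2 rose. Among the 9 that did not pass were Adgrl4 (0.01 ± 0.06, adjusted p = 0.972), Sox17 (0.02 ± 0.08, adjusted p = 0.941) and Emcn (-0.11 ± 0.10, adjusted p = 0.557), chosen after their values were seen. The summed level of the 28 markers ran from 525 to 1543 CPM in vehicle libraries and from 510 to 1085 CPM in dexamethasone libraries over the 8 regions, and no marker was at 0 throughout a group. Of the 10 endothelial genes used as a covariate, 7 themselves passed the test, 5 lower and 2 higher.

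**Figure D5:**
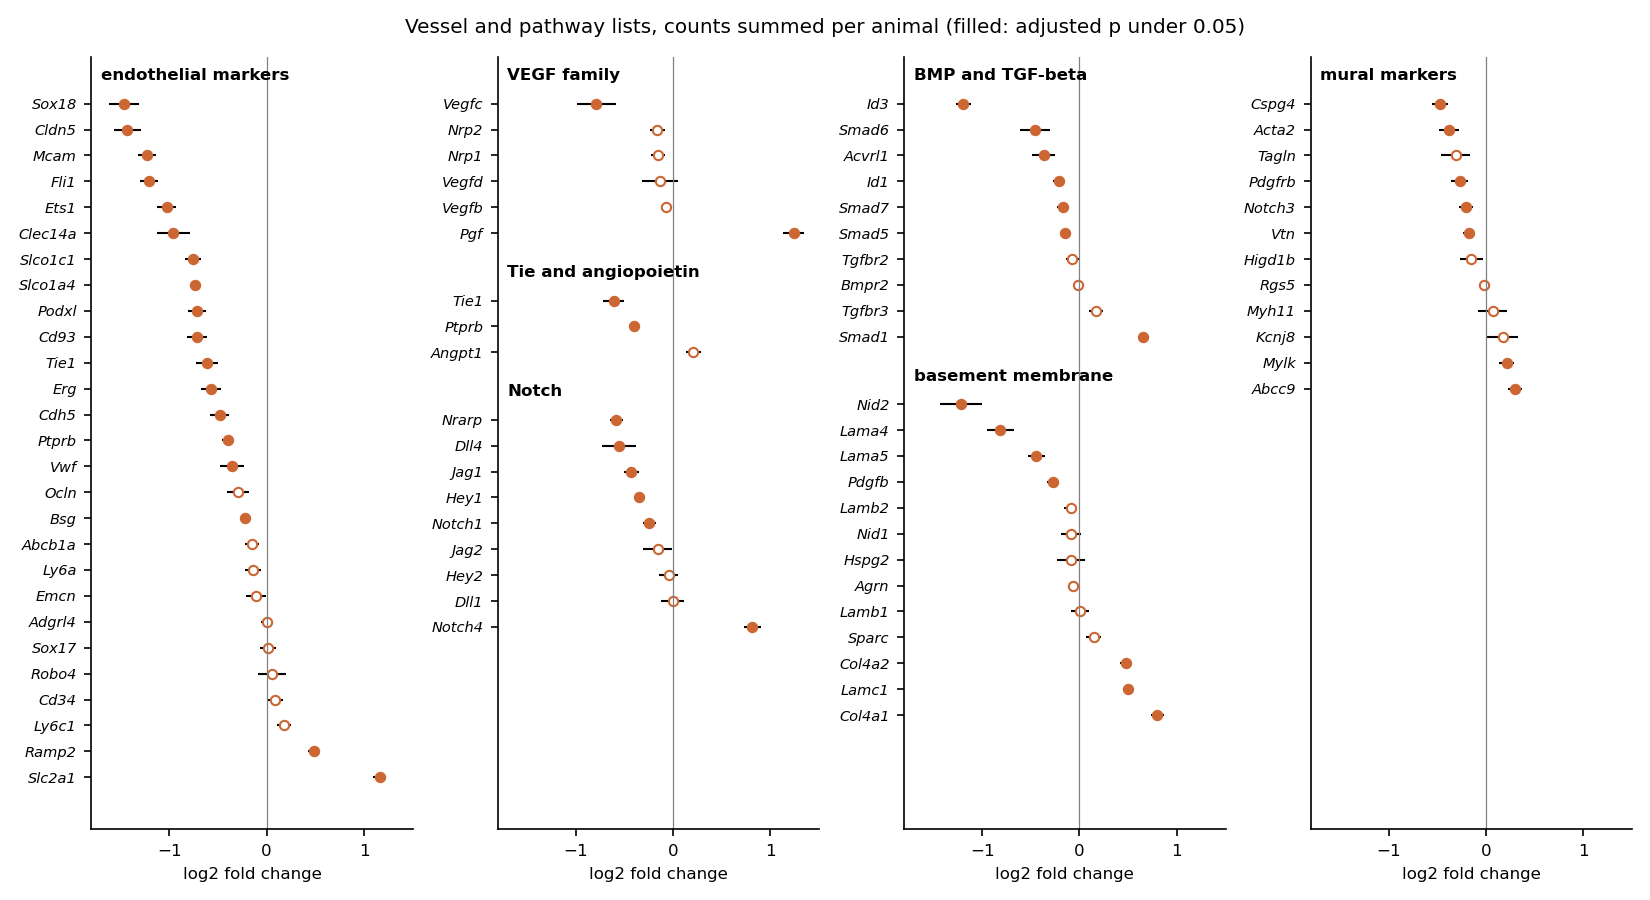
Log2 fold change (horizontal axis) with its standard error, counts summed per animal, for 27 tested endothelial markers and the tested genes of 6 other lists; filled points passed the adjusted p of 0.05. Endothelial markers ran from Sox18 (-1.46) and Cldn5 (-1.43) to Slc2a1 (1.16).

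Of 13 basement membrane genes, 3 rose, 4 fell and 6 did not pass (median -0.09). Col4a1, the main collagen of the vascular basement membrane, rose in all 8 regions, and per animal from 29.9 ± 3.33 to 52.5 ± 7.30 CPM (0.80 ± 0.06, adjusted p = 1.13e-12). Col4a2 rose as well (0.48 ± 0.06, adjusted p = 3.18e-08), as did Lamc1 (0.50 ± 0.05, adjusted p = 6.79e-10). Nid2 (-1.21 ± 0.21, adjusted p = 2.61e-05) and Lama4 (-0.81 ± 0.14, adjusted p = 1.28e-05) fell. Of 15 mural cell markers, the pericytes and smooth muscle around vessels, 12 were tested: 5 fell, 2 rose and 5 did not pass (median -0.16). Cspg4 fell (-0.47 ± 0.08, adjusted p = 2.24e-05) and Abcc9 rose (0.30 ± 0.07, adjusted p = 0.00126), while Rgs5 had a log2 fold change of -0.02 ± 0.05 (adjusted p = 0.881). Their summed level ran from 217 to 774 CPM in vehicle libraries and from 207 to 606 CPM in dexamethasone libraries, with Anpep at 0 throughout 2 dexamethasone groups.

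Markers of other cells in a punch were read beside these values. Of 7 microglial markers 4 fell and 3 did not pass; Cx3cr1, the fractalkine receptor, fell from 150 ± 21.6 to 34.0 ± 5.54 CPM (-2.15 ± 0.07, adjusted p = 3.71e-23), while Csf1r, chosen after its values were seen, did not pass (-0.03 ± 0.06, adjusted p = 0.836). The summed level of the 7 markers ran from 232 to 882 CPM in vehicle libraries and from 134 to 501 CPM in dexamethasone libraries, and no marker was at 0 throughout a group. Of 7 astrocyte markers 1 rose and 2 fell, of 6 fibroblast markers 1 fell, and of 5 oligodendrocyte markers 2 fell. None of 5 neuronal, 4 tested choroid plexus or 5 blood markers passed per animal by edgeR, at unadjusted p of 0.222 or more for the neuronal, 0.238 or more for the choroid plexus and 0.28 or more for the blood genes. Choroid plexus content varied widely, with summed levels of up to 13461 CPM in dDG. In vCA1 the choroid plexus gene Ttr, chosen after its values were seen, fell (log2 fold change -2.27), and the summed level ran from 25.5 to 1437 CPM in vehicle and from 21.0 to 101 CPM in dexamethasone libraries. Also in vCA1, 2 of 3 tested genes that are high in dentate gyrus, Dsp (1.95) and Npnt (1.22), rose, where 3.41% of all genes tested were higher. In dCA1 Plk5 (-0.82) fell as 1 of 6; all 3 were chosen after their values were seen. The summed level of 6 dentate genes in vCA1 had a median of 96.3 CPM in vehicle libraries (59.2 to 176) and of 191 CPM in dexamethasone libraries (89.8 to 423). With that level as a covariate, the vCA1 calls of Flt1 (-0.61), Kdr (-1.75), Itm2a (-0.61) and Pltp (-0.59) held. With the choroid plexus level as a covariate, Flt1 and Kdr passed in 8 of 8 regions, and Itm2a and Pltp still passed in vCA1. The part of the other cell types in the falls of Flt1 and Kdr was not tested.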

How the data were processed

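RNA had been sequenced from the 3' end with unique molecular identifiers. The deposited table held raw counts per gene. STAR 2.6.0a, UMI-tools 0.5.4, cutadapt, featureCounts 1.6.4 and build mm10 are named in the submitters' processing notes, and strand use is not given in the sources used here. The authors also deposited variance-stabilised log2 values for each region, from DESeq2 1.30.1 per the submitters' processing notes, with 228 of the 235 libraries, used only as an alternative input.

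Genes were tested with edgeR 4.0.16 in R 4.3.3 (TMM factors, default expression filter, quasi-likelihood F test, Benjamini-Hochberg adjustment over all genes of a comparison), in each region, on counts summed per animal over regions, and over all regions with the animal as a block. Depth limits the low genes: 3 counts stood for 2.07 to 11.2 CPM, and this covers counting error only. The ratio tests used log2(CPM + 1) and two-sided permutation tests. DESeq2 1.42.0 and limma 3.58.1 served as alternatives, with other filters, scaling factors, batches, RNA integrity and cell content as further ones. The count tests were also run on simulated data, and the outcome is not reported here. Replicate numbers were read as pairing the arms: per the labels, same-numbered libraries of a region shared a plate in 115 of 115 pairs, and same-numbered animals a punching date in 14 of 15. The deviations of same-numbered animals correlated at -0.15 to 0.31, over 0.1 in 11 of 15. The fit with this number as a block is an alternative.

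Members and gene lists were chosen with earlier results of these data known. Named genes of a list were those past the threshold per animal or in at least 4 of 8 regions, at most 5 a list by smallest p. The genes most like Flt1 were the 5 with the highest correlation among genes with a mean of at least 5 CPM, of which 1 is not reported here. No pair of libraries of a group was a duplicate (chi-square per degree of freedom at least 1.39 over 1611 pairs).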

Additional observations from a re-analysis of the deposited data

Results flagged for a closer look

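The response to dexamethasone differed among the 8 regions for 4 of 129 list genes tested (3.1%; 1.27% of all 11053 genes), by edgeR's test of the interaction with the animal as a block. Zbtb16, a transcription factor induced by glucocorticoids, rose in every region, by a log2 fold change of 0.82 in dDG to 2.21 in PVN (adjusted p of the difference = 8.49e-13). Fkbp5, a co-chaperone of the glucocorticoid receptor, rose by 1.65 in dDG to 2.79 in PFC (adjusted p of the difference = 4.34e-11). Sgk1, a kinase induced by glucocorticoids, rose by 0.64 in dDG to 1.27 in CER (adjusted p of the difference = 0.0479). Nrp1, a co-receptor for VEGF-A that was chosen after its values were seen, fell in AMY (-0.71 ± 0.17, SE), CER (-0.76 ± 0.16) and PVN (-0.60 ± 0.12), and had log2 fold changes of 0.10 ± 0.12 in dCA1 and 0.07 ± 0.11 in dDG, which did not pass (adjusted p of the difference = 0.00106). The cause was not tested.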

How the results depend on the processing

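Flt1 and Kdr stayed lower in 8 of 8 regions under every alternative run in all regions except the endothelial level as a covariate, under which both missed the threshold in dDG. Counts of genes past the threshold moved by over 1.5 times in dDG, from 316 to 543 with the replicate block, 137 with the endothelial level and 479 with limma on the deposited values. They moved in vCA1 from 497 to 279 with the level of dentate genes as a covariate, a level that was higher with dexamethasone there (medians 191 and 96.3 CPM), and per animal from 2567 to 1468 with the endothelial level. Per animal, the endothelial covariate also ended the calls of Pecam1 (-0.01), Egfl7 (-0.25) and Pltp (-0.12). It also ended those of Pltp in dCA1 (-0.27) and Itm2a in dDG (-0.21). Most genes of this covariate changed with dexamethasone themselves, so it can remove part of the response.

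Changes of sign concerned values that did not pass the test. Vegfa in AMY was at 0.0022 with no filter, 0.00071 with DESeq2, 7.87e-05 with the replicate block, 0.028 with RIN as a covariate, 0.032 without libraries of RIN under 5, 0.0048 with the choroid plexus level and 0.0026 with limma. Per animal it was at 0.0027 with no filter, 0.0020 with date as a factor, 0.024 in animals with all 8 libraries, 0.058 with the endothelial level and 0.0054 without the libraries with 10 or more Gabra6 counts, an alternative chosen after seeing the data. That alternative put Pecam1 in vDG at -0.0052. With the endothelial level, Pltp was at 0.13 in AMY and 0.24 in dDG, Pecam1 at 0.062 in CER and 0.046 in dCA1, and Esam at 0.14 in dCA1. Itm2a in PVN passed under 4 alternatives and Egfl7 in vCA1 with limma. The cause was not tested.

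With the replicate number as a block, the count of calls in dDG was the 1 that moved by over 1.5 times, and no call of the 10 genes changed. Per-animal calls numbered 2899 against 2567, and 8 of 9 comparisons of Flt1 with another gene passed, as without it. Depth limits Tek and Eng, which the filter on low counts removed in single regions. With no filter Tek passed in 5 and Eng in 0 of 8 regions, and with limma on the deposited values in 4 and 0.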
